A study of Rattus norvegicus with 54 samples.

Results

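The 9 genes described here encode the enzymes that build, lengthen and desaturate fatty acids: Acly, Acaca and Fasn for synthesis, Elovl6, Elovl5 and Elovl1 for elongation, and Scd, Fads1 and Fads2 for desaturation. They are 9 of the 45785 named genes counted in nucleus accumbens tissue of the Long Evans strain of rat. The set was chosen by the age difference of Elovl6 in control rats, a measured value of these libraries, together with enzymes of the same pathway, so that difference is given below as a description without a test. The age difference in ethanol-exposed rats, the exposure differences, the sex differences and the variation between libraries were not used to choose the genes.

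In the brain, most saturated fatty acid is made on site. Acly, ATP citrate lyase, splits citrate into acetyl-CoA, Acaca, acetyl-CoA carboxylase alpha, turns it into malonyl-CoA, and Fasn, fatty acid synthase, joins these units into palmitate. Elovl6 lengthens palmitate to stearate, Scd, a stearoyl-CoA desaturase, places a double bond in stearate to give oleate, Elovl1 makes very long saturated chains for sphingolipids, and Elovl5 with Fads1 and Fads2 makes polyunsaturated chains. Myelin, the lipid sheath that oligodendrocytes wrap around axons and that is still being laid down in adolescence, is a large user of these products.

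The libraries are bulk RNA sequencing of this reward region of the ventral striatum, from male and female rats. Animals labelled PAE had prenatal ethanol and those labelled FCL came from the free-choice liquid diet arm, and each then had alcohol (AAE) or water (VEH) in adolescence. At postnatal day 90 (P90) there were 5 PAE-AAE and 8 FCL-VEH libraries of females, and 6 PAE-AAE and 6 FCL-VEH libraries of males. At postnatal day 42 (P42), the day after the last adolescent exposure, there were 4 PAE-VEH and 7 FCL-VEH libraries of females, and 9 PAE-VEH and 9 FCL-VEH libraries of males. FCL-VEH is called control below. Exposed adults had both prenatal ethanol and adolescent alcohol, while exposed adolescents had prenatal ethanol and water, so between the exposed groups age, adolescent alcohol and the time since the last exposure cannot be told apart. The labels do not tie libraries to separate animals or litters, and p-values therefore measure only the spread between these libraries.

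Total counts ran from 59.1 to 103.8 M (mega) per library, with a median of 72.45 M. Xist and 4 Y-linked genes went against the labelled sex in 3 libraries, all at P42: control male replicate 8, control female replicate 5 and PAE-VEH male replicate 5. Markers of the neuron type of this region were present in every library, with Drd1 between 115.5 and 471.6 CPM (counts scaled to library size) and Drd2 between 65.13 and 265.2 CPM, but markers of neighbouring tissue varied more widely. Slc17a7, a marker of cortical excitatory neurons, ran from 4.149 to 1185 CPM and Ttr, a marker of the choroid plexus, from 3.074 to 3761 CPM. The library labelled P42 PAE-VEH male replicate 6 had the highest cortical marker score and that labelled P90 control male replicate 6 the highest choroid plexus score. CPM here are scaled by TMM, the trimmed mean of M values, and in bulk tissue fewer cells of a type and less RNA per cell cannot be told apart.

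All 9 genes passed the filter on low counts in every fit. Per transcript length, by the FPKM (fragments scaled to transcript length and library size) that the authors deposited, the median level over the 54 libraries was highest for Acly at 61.39 FPKM. Fads1 followed at 48.55 FPKM, Fasn at 46.61, Elovl5 at 34.58, Fads2 at 28.6, Elovl1 at 15.21, Elovl6 at 14.19, Acaca at 12.18 and Scd at 5.04 FPKM. The lowest Acaca library lay above the highest Scd library, while every other pair of neighbours in this order overlapped in range. Fads2 was above Elovl1 in 54 of 54 libraries when both were read in the same library, but Elovl1 was above Elovl6 in 27 of 54 and Fads1 above Fasn in 31 of 54, so neither of those pairs has an order. Scd has related genes close by on the same chromosome, and the counting is not described in the sources used here. Its counts may therefore include or lack reads of those genes, whose likeness in sequence was not measured.

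The genes also differed in how much they varied. Acaca was the steadiest, with a coefficient of variation of 7.6% over all libraries and a highest library 1.34 times the lowest. Scd and Elovl1 both spanned 3.46-fold, with coefficients of variation of 23.9% and 29.1%, and Elovl6 spanned 2.06-fold with 20.1%. Within groups the standard deviation of log2 CPM was 0.32 for Elovl1, 0.25 for Scd and 0.16 for Elovl6, so Elovl1 was the member in which a difference of a given size was hardest to resolve.

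The genes lie on 5 chromosomes of the rat assembly GRCr8, by the positions in the deposited table, and the desaturases Fads1 and Fads2 are neighbours. Fads2 (chr1:216132277-216172190, minus strand) and Fads1 (chr1:216252605-216267618, plus strand) are 80.4 kb apart, with 0 protein-coding genes lying wholly between them. Elovl6 covers chr2:220738095-220845528 on the plus strand, Fasn chr10:106570415-106588581 on the minus strand and Scd chr1:253218968-253232101 on the minus strand. Libraries did not keep strand, and the gene on the opposite strand with most reads held 1.05% of the counts of the member it overlaps, Fads2.

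RefSeq promoter windows, which run from 250 bases before to 50 bases after 1 annotated start of a gene, matched 6 of the 9 genes, namely Elovl5, Elovl1, Scd, Acly, Fads1 and Fads2. That start is the outer end of the gene for Elovl5 alone. It lies inside the gene by 87 bases for Fads1, 157 for Fads2, 370 for Scd, 974 for Acly and 1374 for Elovl1, so the Scd, Acly and Elovl1 windows fall wholly within the gene's outer bounds and hold no base upstream of them. Windows for Scd, Elovl5 and Acly are printed because Scd fell with age in exposed males in every fit tried, below, and Elovl5 and Acly passed in none. Capitals mark the letters CCAAT (the CCAAT box), GGGCGG (the GC box) and CACGTG (an E-box), each searched on both strands. TCACCCCAC, the core of a classical sterol regulatory element, was searched in the same way.
Scd (GRCr8, chr1:253231682-253231981, minus strand): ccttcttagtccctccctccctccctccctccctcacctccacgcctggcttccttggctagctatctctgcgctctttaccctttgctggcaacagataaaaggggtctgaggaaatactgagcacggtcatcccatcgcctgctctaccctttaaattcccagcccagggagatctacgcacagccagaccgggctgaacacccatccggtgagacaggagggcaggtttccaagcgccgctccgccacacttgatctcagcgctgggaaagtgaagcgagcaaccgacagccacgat
Elovl5 (GRCr8, chr8:87670914-87671213, plus strand): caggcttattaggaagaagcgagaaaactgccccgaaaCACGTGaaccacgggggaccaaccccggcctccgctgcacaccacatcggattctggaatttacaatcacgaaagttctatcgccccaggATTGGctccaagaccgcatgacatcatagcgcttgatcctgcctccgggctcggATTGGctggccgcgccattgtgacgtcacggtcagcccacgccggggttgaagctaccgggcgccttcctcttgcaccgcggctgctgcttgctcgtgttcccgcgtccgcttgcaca
Acly (GRCr8, chr10:85963582-85963881, minus strand): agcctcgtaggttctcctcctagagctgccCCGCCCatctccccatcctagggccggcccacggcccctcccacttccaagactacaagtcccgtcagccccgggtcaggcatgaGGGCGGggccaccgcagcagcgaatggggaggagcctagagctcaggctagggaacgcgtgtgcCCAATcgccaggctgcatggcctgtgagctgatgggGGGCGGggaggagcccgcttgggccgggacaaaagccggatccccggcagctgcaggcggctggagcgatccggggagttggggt
The Scd window, inside the gene's outer bounds, holds none of these motifs, and neither does that of Elovl1, also inside them. Elovl5 holds 2 CCAAT boxes in reverse complement and 1 E-box, and Acly holds 1 CCAAT box and 3 GC boxes. Over all 33469 promoter windows, 37.5% hold CCAAT, 33.1% GGGCGG, 6.42% CACGTG and 0.484% TCACCCCAC, and none of the 6 members holds the last. A match describes the letters only, and the absence of one covers this window alone.

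The age comparison in exposed males asked whether adult PAE-AAE males differed from adolescent PAE-VEH males, in libraries apart from the controls that put Elovl6 forward. Of the 9 members, 3 fell at P90: Scd, Elovl6 and Fasn. Over all 24337 genes tested by edgeR's quasi-likelihood test 0.284% were called, and 0.23% of all genes tested were called as lower, at an adjusted p under 0.05 with Benjamini-Hochberg adjustment over all genes. All 9 members had a log2 fold change below 0, with a median of -0.28, while the median over all genes was 0.00.

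Scd gave 13.5, 18 and 20.6 CPM as the lowest, median and highest of the 6 P90 PAE-AAE males, against 21.3, 30.7 and 46.7 CPM in the 9 P42 PAE-VEH males. Every P90 library lay below every P42 library; such a gap downwards was seen in 0.238% of genes, and Scd was the single member with it. The log2 fold change was -0.76 ± 0.13 (SE; adjusted p = 0.00801, edgeR). The highest P42 library, replicate 6 at 46.7 CPM, is the one with the high cortical score, and the change stayed past the threshold without it and in each of the 15 fits that left out 1 library (-0.81 to -0.65).

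Elovl6 gave 25.6, 30.3 and 43.5 CPM as the lowest, median and highest of the P90 PAE-AAE males, against 36.9, 46.3 and 49.1 CPM in the P42 PAE-VEH males. The groups overlapped through a single P90 library, replicate 3, since the other 5 reached no higher than 31.1 CPM. Elovl6 fell by 0.49 ± 0.10 on the log2 scale (adjusted p = 0.0195, edgeR), and 6 of 6 P90 libraries lay below the P42 median. The call was lost when P90 replicate 1, 2, 4 or 5 was left out, with adjusted p between 0.0533 and 0.073, and was kept in the other 11 of 15 such fits.

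Fasn gave 355.6, 393.9 and 445.5 CPM as the lowest, median and highest of the P90 PAE-AAE males, against 424.9, 480.5 and 549.5 CPM in the P42 PAE-VEH males. Again P90 replicate 3 was the one adult library within the adolescent range. Fasn fell by 0.28 ± 0.06 (log2, SE; adjusted p = 0.0461, edgeR), also in 6 of 6 libraries against the P42 median. This call was the least firm: it was kept by 4 of the 15 fits that each drop 1 library, those without P90 replicate 3 or P42 replicate 6, 7 or 8, with adjusted p up to 0.141 in the others. The highest P42 library, replicate 5 at 549.5 CPM, is one whose sex markers go against its title. Fasn did not pass without it (adjusted p = 0.0796, edgeR).

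The remaining members did not pass in exposed males. Fads2, the delta-6 desaturase, had a log2 fold change of -0.31 ± 0.08 (adjusted p = 0.0935, edgeR), with 66.9, 79.9 and 97 CPM as the lowest, median and highest at P90 and 83, 99.1 and 114.97 CPM at P42. Fads1, the delta-5 desaturase, had -0.23 ± 0.07 (adjusted p = 0.206), and Elovl1 -0.37 ± 0.14 (adjusted p = 0.321). All 6 P90 libraries lay below the P42 median for both desaturases, but 4 of 6 for Elovl1. Acaca, Elovl5 and Acly were nearer to 0, at -0.09 ± 0.06, -0.09 ± 0.08 and -0.01 ± 0.08. The 95% interval for Acly, from -0.17 to 0.14, excludes a change of the size seen for Fasn.

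Markers of cell types were read in the same comparison. Of 15 myelinating oligodendrocyte markers, 12 lay below 0 with a median of -0.43, though none fell past the threshold and 1, Cryab, rose (0.89). The myelin score ran from -0.65 to 0.30 with a median of -0.05 in the P90 PAE-AAE males and from -0.43 to 0.72 with a median of 0.14 in the P42 PAE-VEH males. With that score as a covariate, Scd and Elovl6 stayed past the threshold (log2 fold changes -0.74 and -0.43). Fasn did not (-0.25, adjusted p = 0.0589, edgeR). Scd had a within-group r of 0.09 with this score, so this covariate could move its value little. Of 14 astrocyte markers, 11 were below 0 with a median of -0.11 and 0 past the threshold. The part of astrocytes in the Scd value was not tested. Gpr17, which marks newly formed oligodendrocytes, fell by 0.75 (adjusted p = 0.00326). Cortical excitatory neuron markers had a median of -1.26, with 8 of 10 below 0 and 0 past the threshold. With cortical and other neighbour scores as covariates, a setting chosen after seeing the data, the log2 fold changes were -0.74 for Scd and -0.49 for Elovl6, both past the threshold.

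Other genes of lipid synthesis were read from 7 pathway lists. Elovl2, which elongates polyunsaturated chains, was the 1 of 9 tested genes of the elongation cycle to pass, and it fell by 0.31 (adjusted p = 0.00864, edgeR). In the list of malonyl-CoA supply and type I synthesis, 2 of 12 fell: Acat2, a cytosolic thiolase of sterol synthesis, by 0.75 (adjusted p = 0.00433), and Acss2, which makes acetyl-CoA from acetate, by 0.47 (adjusted p = 0.0137). Dbi, the acyl-CoA binding protein, fell by 0.49 and was the 1 of 14 tested genes of fatty acid activation and binding to pass.

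In the list of long-chain lipid use in myelin, 2 of 12 fell. Ugt8, which makes galactosylceramide, fell by 1.08 (adjusted p = 0.00225, edgeR) and Fa2h, which hydroxylates the fatty acid of that lipid, fell by 0.73 (adjusted p = 0.0231). None of 7 further desaturation genes passed, Fads6 having the smallest p (0.14, adjusted p = 0.489). None of 7 mitochondrial fatty acid synthesis genes passed either, Hsd17b8 coming nearest (-0.14, adjusted p = 0.573), nor did any of 17 regulators of lipogenic transcription, of which Insig1, a sterol sensor, came nearest (-0.48, adjusted p = 0.252). List medians were -0.08 for elongation, -0.06 for desaturation, -0.10 for malonyl-CoA supply, -0.03 for mitochondrial synthesis, -0.09 for activation and binding, 0.05 for regulators and -0.16 for myelin lipid use.

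In exposed females, P90 PAE-AAE against P42 PAE-VEH, edgeR called 0 of the 9 members, while 2.17% of all 24337 genes were called. At an unadjusted p under 0.05, 3 members were lower, Elovl1, Elovl6 and Scd, where 8.62% of all genes were. DESeq2 and voom called 1 member each. Elovl1 had 35.8, 34.2, 48.1, 32.6 and 35.9 CPM in the 5 P90 PAE-AAE females, against 57.2, 57.4, 48.6 and 57.2 CPM in the 4 P42 PAE-VEH females. The groups met closely at P90 replicate 3 and P42 replicate 3 but did not overlap, as was so downwards for 4.34% of genes. The log2 fold change was -0.56 ± 0.17 (adjusted p = 0.0839, edgeR), and it was past the threshold without P90 replicate 3 (-0.67, adjusted p = 0.0444), in DESeq2 (adjusted p = 0.0239) and in voom (adjusted p = 0.017). The first was 1 of 9 edgeR fits that left out 1 library, and adjusted p reached 0.23 in the others. Of 9 other settings, 4 called Elovl1, and adjusted p over these settings reached 0.183.

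Elovl6 had 26.8, 35.6, 29.2, 33.0 and 27.8 CPM in P90 PAE-AAE females, against 37.8, 34.8, 38.5 and 35.9 CPM in P42 PAE-VEH females. It overlapped by 1 library, P90 replicate 2, with a log2 fold change of -0.27 ± 0.12 (adjusted p = 0.258, edgeR). Scd had 22.6, 16.2, 19.6, 19.9 and 16 CPM in P90 PAE-AAE females, against 24.5, 21.6, 24.7 and 25.4 CPM in P42 PAE-VEH females, with -0.35 ± 0.17 (adjusted p = 0.285), and overlapped through P90 replicate 1. Fasn, with 388.5, 427.5, 418.9, 424.4 and 367.7 CPM in P90 PAE-AAE females and 439.4, 429.5, 457.2 and 439.5 CPM in P42 PAE-VEH females, also did not overlap, but its change was small, -0.12 ± 0.08 (adjusted p = 0.448). Fads1 and Fads2 lay above 0 here, at 0.17 ± 0.09 and 0.09 ± 0.10, and higher than the P42 median in 5 of 5 libraries each. The member median was -0.07, and -0.01 over all genes.

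Among pathway genes in exposed females, Acsbg1, which activates long-chain fatty acids, rose by 0.49 (adjusted p = 0.0166, edgeR) and was 1 of 14 tested in its list. Rxra and Nr1h2, a nuclear receptor pair that drives sterol-responsive lipogenesis, rose by 0.38 and 0.32, 2 of 17 regulators, where 2.17% of all genes were called. At an unadjusted p under 0.05, 3 of the 17 regulators were lower, where 8.62% of all genes were, and the list median was 0.05. Ugt8 fell by 0.75 (adjusted p = 0.0432), 1 of 12 genes of myelin lipid use. None passed among the elongation genes (nearest Hsd17b12, 0.21, adjusted p = 0.126), the further desaturases (nearest Scd2, 0.24, adjusted p = 0.14), malonyl-CoA supply (nearest Acss2, -0.37, adjusted p = 0.0816) or mitochondrial synthesis (nearest Acsf3, 0.13, adjusted p = 0.547). Astrocyte markers stood higher in these adults, with 13 of 14 above 0, 3 of 14 past the threshold and a list median of 0.26, whereas all 19 medium spiny neuron markers were below 0 with a median of -0.31; their part in the members' values was not tested.

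The female minus male difference of the age effect in exposed rats was tested directly, and edgeR called 0 members where 1.84% of all genes were called. At an unadjusted p under 0.05, 2 members were higher, Fads1 and Fads2, against 7.57% of all genes. DESeq2 and voom each called both. The difference was 0.40 ± 0.11 for Fads1 (adjusted p = 0.0583, edgeR) and 0.40 ± 0.12 for Fads2 (adjusted p = 0.0839). For Elovl6 it was 0.22 ± 0.15, with a 95% interval of -0.10 to 0.54, and for Scd 0.40 ± 0.21 (-0.04 to 0.84), so these data do not show that the sexes differed in either. Among pathway genes, Dbi (0.73, adjusted p = 0.0298), Acsbg1, an acyl-CoA synthetase (0.57, adjusted p = 0.0344), and Mlxipl, a carbohydrate-responsive lipogenic factor (-1.22, adjusted p = 0.0452), passed. These calls were lost in the fit of all 54 libraries, which called 0 genes. They were also lost without PAE-AAE female replicate 1 or 5, PAE-VEH female replicate 1 or PAE-AAE male replicate 5, where 0% of genes were called.

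**Figure D1:**
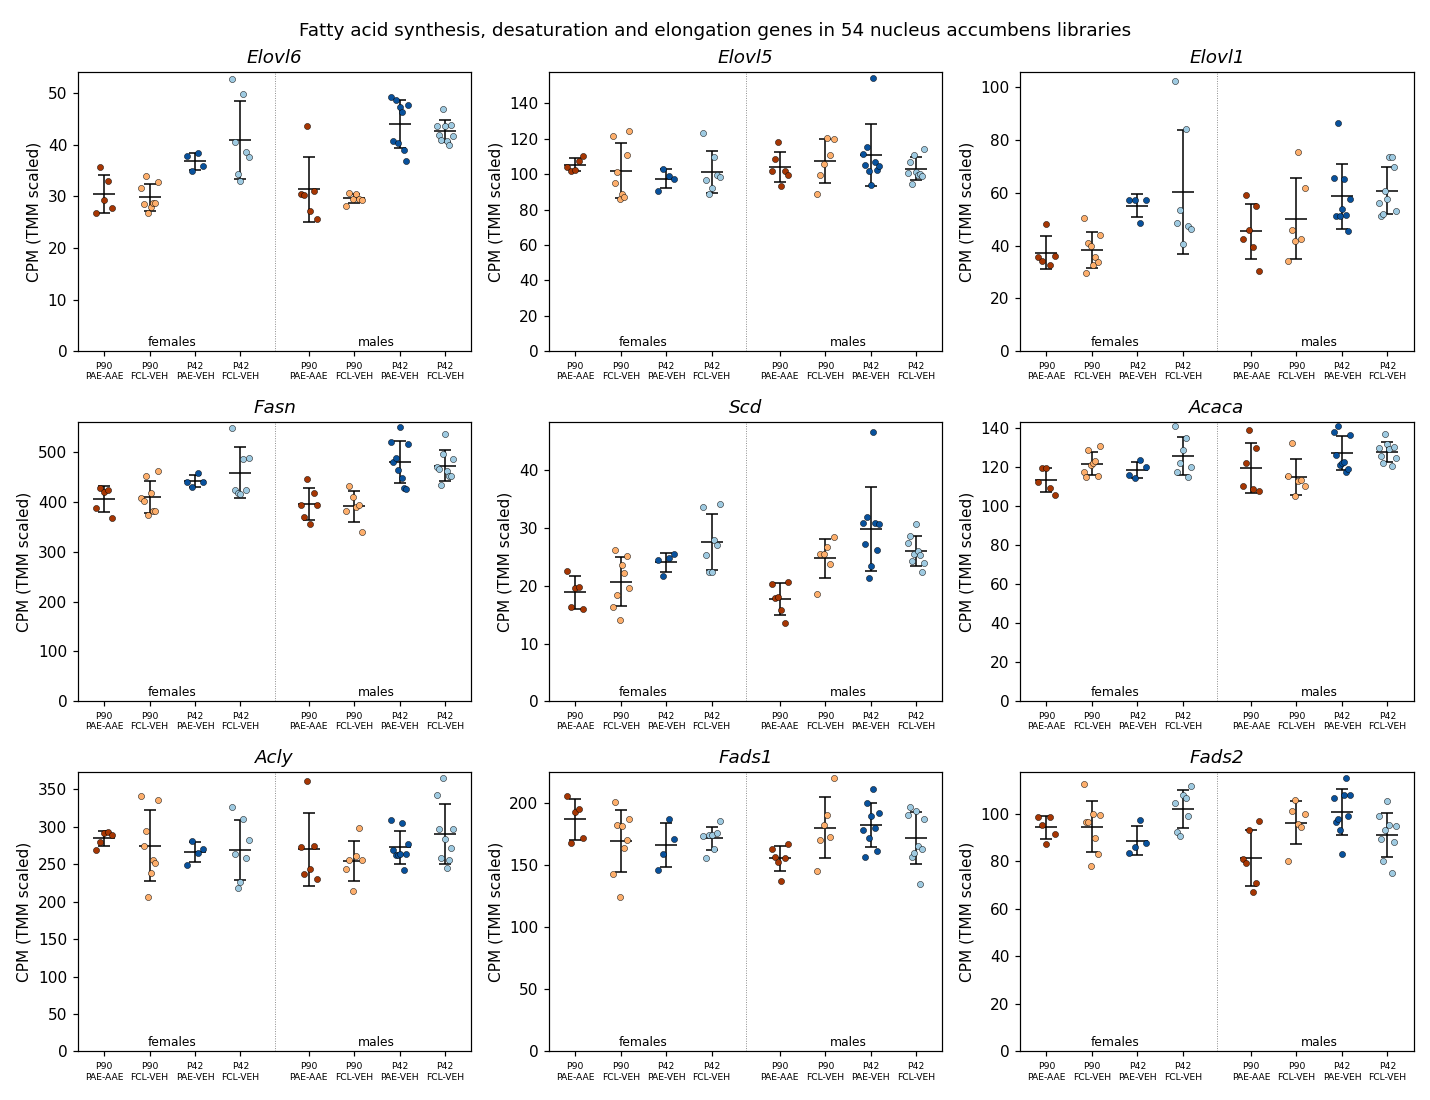
CPM of each member in each of the 54 libraries (points), with the mean and standard deviation (bars) of each of the 8 groups, females left and males right in each panel. Mean Elovl6, Elovl1 and Fasn are lower in P90 groups than in P42 groups of the same sex, both in controls and in PAE rats. The PAE groups also differ in adolescent treatment, alcohol at P90 and water at P42. Scd in P90 PAE-AAE males lies between 13.5 and 20.6 CPM, below all P42 PAE-VEH males.

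In controls, the contrast that put Elovl6 forward, the values are given without a test. Control females had 26.7, 28.6 and 33.9 CPM of Elovl6 as the lowest, median and highest of 8 libraries at P90, against 33.0, 38.6 and 52.7 CPM in 7 libraries at P42, a log2 fold change of -0.46 ± 0.08 (SE). Control males had 28.1, 29.5 and 30.6 CPM in 6 libraries at P90, against 39.9, 42.0 and 46.9 CPM in 9 libraries at P42, or -0.52 ± 0.08. The male groups did not overlap and the female groups did, at their edges.

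Beside Elovl6, Elovl1 stood at -0.65 ± 0.17 on the log2 scale in control females and at -0.28 ± 0.18 in control males, and Fasn at -0.16 ± 0.07 in females and -0.27 ± 0.07 in males. Scd was at -0.41 ± 0.12 in females but -0.07 ± 0.12 in males, where its 6 P90 libraries (18.5, 25.5 and 28.4 CPM as lowest, median and highest) covered much the same range as the 9 P42 libraries (22.4, 25.4 and 30.6 CPM). Acaca, Acly, Elovl5, Fads1 and Fads2 lay between -0.19 and 0.08 in either sex. In these controls the male groups did not overlap for 2 members, Elovl6 and Fasn, and 0 members had separate female groups. Such a gap downwards was seen in 0.249% of all genes in males and 0.134% in females, and nothing is read from these shares, since this contrast chose Elovl6.

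**Figure D2:**
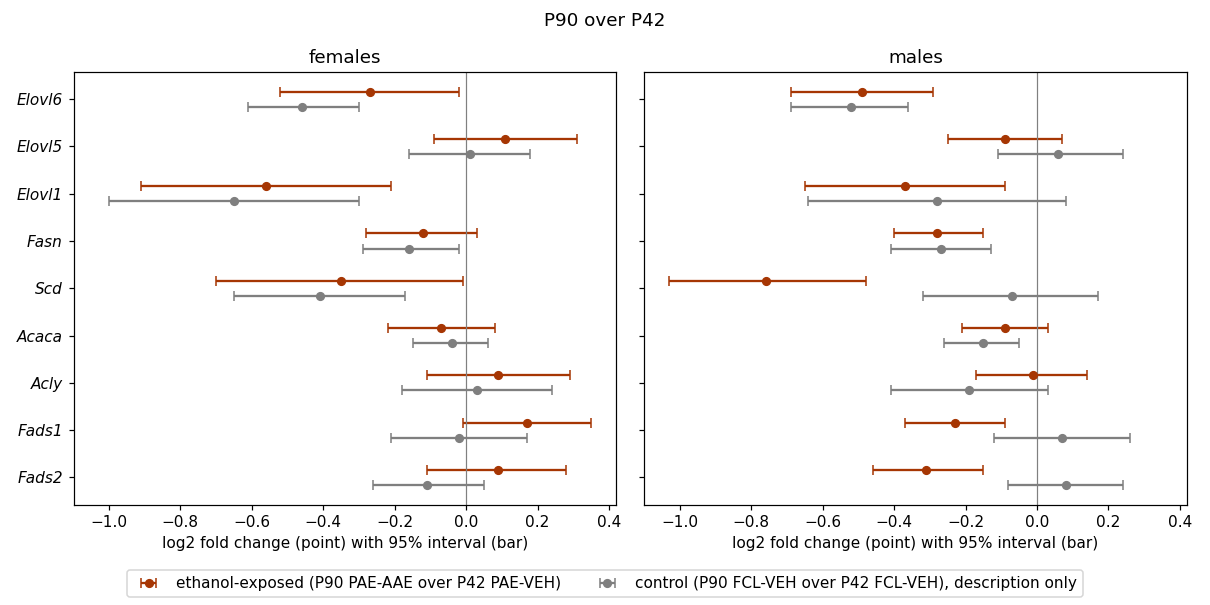
Log2 fold change of each member, P90 over P42, with its 95% interval, in females (left) and males (right), for exposed rats (upper point of each pair) and controls (lower point, a description). In males Scd stands at -0.76 in exposed rats and -0.07 in controls, while Elovl6 stands at -0.49 and -0.52.

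Whether the exposed and the control age differences differ was tested in 1 fit of all 54 libraries, as the exposure effect at P90 minus that at P42, a test chosen after these values were seen. In males edgeR called 0 members, with 0.142% of 26079 genes called. At an unadjusted p under 0.05, 3 members were lower, against 9.49% of all genes. DESeq2 called 2 members and voom 1. Scd differed by -0.68 ± 0.18 (95% interval -1.04 to -0.32, adjusted p = 0.0643, edgeR), Fads2 by -0.39 ± 0.11 (adjusted p = 0.0781) and Fads1 by -0.30 ± 0.12 (adjusted p = 0.179). For Fasn the difference was 0.00 ± 0.09 with an interval of -0.18 to 0.17. No test is given for Elovl6, whose control age difference chose it and enters this contrast. Leaving out P42 control replicate 1, P90 control replicate 1 or 2, or P90 PAE-AAE replicate 6 brought Scd past the threshold, with adjusted p of 0.0467, 0.0203, 0.0377 and 0.0296. These were 4 of the 30 edgeR fits that left out 1 library, and adjusted p reached 0.237 in the others. Of 7 other settings, 1 called Scd, and adjusted p over these settings reached 0.347. In this contrast 13 of 14 astrocyte markers were below 0 (median -0.33, 1 past the threshold), as were 14 of 15 myelinating oligodendrocyte markers (median -0.55), and their part in the Scd and Fads values was not tested.

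In females the same test by edgeR called 0 members and 0% of genes, with 0 members at an unadjusted p under 0.05, where 5.1% of genes were. Neither DESeq2 nor voom called one. Scd stood at 0.06 ± 0.20 and Fads2 at 0.20 ± 0.12. The intervals for Scd (-0.35 to 0.47) and Fads2 (-0.05 to 0.44) do not reach the male point estimates, but the sex difference in this quantity was not tested.

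The exposure comparisons at each age asked what ethanol-exposed rats showed against controls of the same age and sex. These share their control libraries with the control age contrast, so the values stand side by side with no comparison drawn between them. Elovl6 was chosen by that contrast, so its exposure values are a description, and counts of called members bear on the other members only. At P90, in PAE-AAE against control, edgeR called 0 members and 0% of all genes in either sex. At an unadjusted p under 0.05, 3 members were lower in males and 0 in females, where 5.56% of all genes were lower in males and 2.56% in females. DESeq2 and voom called 0 members.

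The 3 members lower in P90 males at that level were the desaturases. Scd gave 13.5, 18 and 20.6 CPM as the lowest, median and highest of 6 PAE-AAE males, against 18.5, 25.5 and 28.4 CPM in 6 control males. Control replicate 1, at 18.5 CPM, was the one control inside the exposed range, and all 6 exposed libraries lay below the control median. The log2 fold change was -0.48 ± 0.14 (adjusted p = 0.552, edgeR).

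Fads2 had 66.9, 79.9 and 97 CPM as the lowest, median and highest in the P90 PAE-AAE males, against 79.9, 97.8 and 105.7 CPM in P90 control males, with a log2 fold change of -0.24 ± 0.09 (adjusted p = 0.552). Fads1 had 137.3, 156.3 and 167.5 CPM in the P90 PAE-AAE males, against 145.5, 177.7 and 220.3 CPM in P90 control males, with -0.21 ± 0.10 (adjusted p = 0.563). The groups overlapped for both genes, and all 6 exposed libraries lay below the control median in each. Fasn stood at 0.02 ± 0.07. Elovl6 stood at 0.08 ± 0.10 (-0.04 without PAE-AAE replicate 3), a description, since these controls enter the contrast that chose it. All 15 tested myelinating oligodendrocyte markers were also below 0 in P90 PAE-AAE males (median -0.49, 6 at an unadjusted p under 0.05), as were 13 of 14 astrocyte markers (median -0.13); the part of these cells in the desaturase values was not tested.

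In P90 females, PAE-AAE against control, the members' log2 fold changes ran from -0.13 ± 0.14 for Scd to 0.15 ± 0.10 for Fads1, with a median of 0.00. The female minus male difference of the exposure effect at P90 had 0 members called by edgeR, DESeq2 or voom and 0% of genes called by edgeR, with 1 member higher at an unadjusted p under 0.05 (5.31% of genes were), Fads1 at 0.36 ± 0.14 (adjusted p = 0.423).

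At P42, in PAE-VEH against control, edgeR again called 0 members and 0% of all genes in either sex, and DESeq2 and voom called 0 members. At an unadjusted p under 0.05, 1 member was higher in males (5.95% of all genes were) and 1 was lower in females (5.5% of all genes were), and both were Fads2. Fads2 had 83, 99.1 and 114.97 CPM as the lowest, median and highest of the 9 PAE-VEH males, against 75.1, 93.3 and 105.2 CPM in the 9 control males, a log2 fold change of 0.15 ± 0.06 (adjusted p = 0.497, edgeR). It had 83.3, 86.1, 97.1 and 87.8 CPM in the 4 PAE-VEH females, against 90.6, 104.3 and 111.6 CPM as the lowest, median and highest of the 7 control females, or -0.20 ± 0.08 (adjusted p = 0.354). The groups overlapped in both sexes.

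The female minus male difference of the exposure effect at P42 was -0.35 ± 0.11 for Fads2 (adjusted p = 0.265, edgeR) and -0.40 ± 0.18 for Scd (adjusted p = 0.442). EdgeR called 0 members and 0% of genes for it, and 2 members were lower at an unadjusted p under 0.05, against 6.25% of genes. DESeq2 and voom called 0 members. All 9 members had a log2 fold change below 0 in P42 females, with a median of -0.09 where that over all genes was -0.03. All 4 exposed libraries nonetheless lay above the control median for Elovl1 and for Fasn, and 3 of 4 did for Acly, and without control female replicate 1 the fold changes of Elovl1 and Acly were 0.04 and 0.03. In P42 males 6 of 9 were above 0, with a median of 0.05. All 15 myelinating oligodendrocyte markers were below 0 in the same females, with a median of -0.30. All 19 medium spiny neuron markers were above 0 in them, with a median of 0.44 and 14 at an unadjusted p under 0.05. In the P42 PAE-VEH males, 13 of 14 astrocyte markers were above 0, with a median of 0.18 and 7 at an unadjusted p under 0.05. The part of these shifts in the members' values was not tested.

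**Figure D3:**
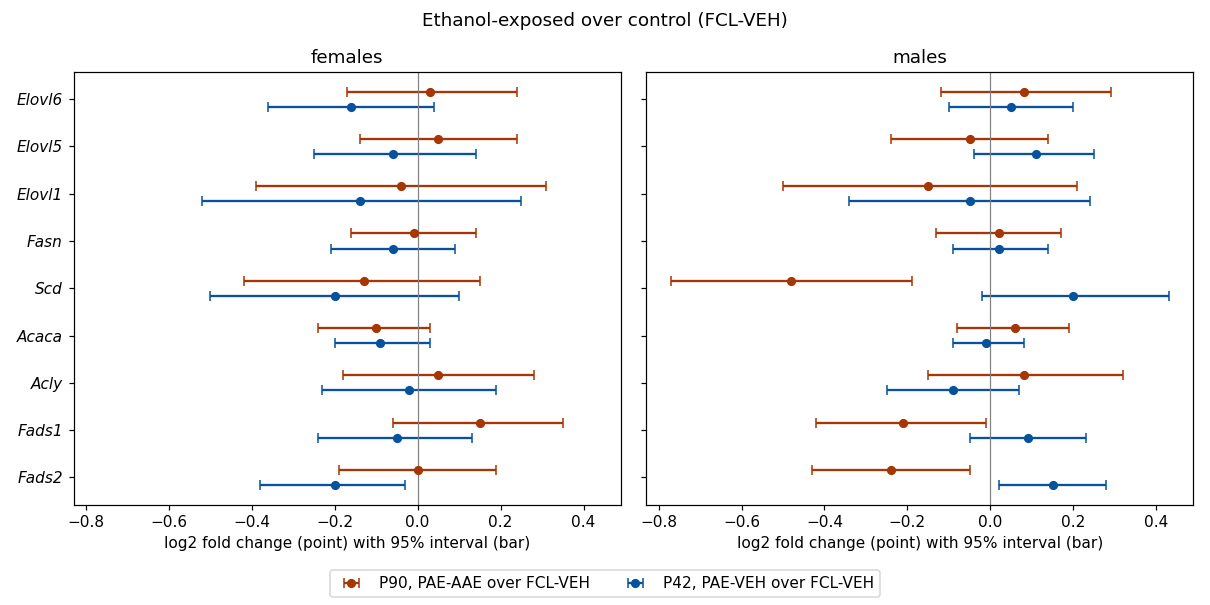
Log2 fold change of each member, exposed over control, with its 95% interval, in females (left) and males (right), at P90 (upper point of each pair) and P42 (lower point). Scd, Fads1 and Fads2 lie below 0 in P90 males at -0.48, -0.21 and -0.24, and no member passes adjustment over all genes.

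None of the other pathway genes passed in these 4 exposure comparisons. The nearest was Fabp7, a fatty acid binding protein of astrocytes and progenitors, at 0.48 in P42 PAE-VEH males (adjusted p = 0.228, edgeR) and -0.40 in P42 PAE-VEH females (adjusted p = 0.246). Dbi was nearest in P90 PAE-AAE males, at -0.53 (adjusted p = 0.552), and Nr1h2 in P90 PAE-AAE females, at 0.23 (adjusted p = 1, edgeR). In the edgeR test of the P90 minus P42 exposure effect in males, both passed, Dbi at -0.88 (adjusted p = 0.0394) and Fabp7 at -1.08 (adjusted p = 0.045). They were 2 of the 15 genes of fatty acid activation and binding, where 0.142% of all 26079 genes were called. Over 7 other settings the number of genes called ran from 0 to 508, so both calls depend on the setting.

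Female controls against male controls showed no called member at either age. At P42 edgeR called 0% of genes, with 1 member at an unadjusted p under 0.05, Fads2 (0.16 ± 0.07), against 3.97% of genes higher, where 2 of the 3 libraries that go against their labelled sex are in this comparison. At P90 it called 0.0499% of genes and 0 members, with 2 at an unadjusted p under 0.05, Elovl1 (-0.39 ± 0.18) and Scd (-0.25 ± 0.12), against 3.03% of genes lower. DESeq2 and voom called 0 members at both ages. All 15 myelinating oligodendrocyte markers were lower in P90 control females than in P90 control males, with a median of -0.57 and 10 at an unadjusted p under 0.05. With the myelin score as a covariate the Elovl1 value was 0.04.

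Within groups, the members varied with different cell types. Scores were the mean log2 CPM of a marker list, centred per gene, and correlations were taken over the 54 libraries after removing group means, with permutation tests (100000 resamples within groups) adjusted over 36 relations of 9 members with 4 scores. Of these, 21 passed an adjusted p of 0.05. Elovl1 followed the myelinating oligodendrocyte score closely, with Pearson's r of 0.93 and Spearman's rho of 0.89 (adjusted p = 7.2e-05 for each, from a permutation p of 1e-05, the smallest these resamples can give), 0.92 without the 2 libraries farthest from the median score, 0.92 within P42 and 0.95 within P90.

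Elovl6 correlated with the same score at r = 0.56 (rho 0.55, adjusted p = 0.000206 by permutation), 0.49 without the 2 farthest libraries. Within ages r was 0.84 at P42 and 0.31 at P90; this difference between ages was not tested. It correlated a little more with the score of oligodendrocyte precursors and newly formed oligodendrocytes, at r = 0.62 (rho 0.62), and 0.58 without the 2 farthest. Acaca (r = 0.49) and Fasn (r = 0.42) also correlated most, among the positive relations, with the precursor score.

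The desaturases sided with astrocytes instead. The astrocyte score had r = 0.69 with Fads2 (rho 0.60, adjusted p = 7.2e-05 by permutation), 0.55 with Fads1 (rho 0.52, adjusted p = 0.0004) and 0.53 with Scd (rho 0.55, adjusted p = 0.000851), and without the 2 farthest libraries these were 0.67, 0.52 and 0.56. Elovl5, which acts on the same polyunsaturated chains as the Fads enzymes, had r = 0.71 (rho 0.68) with the astrocyte score. It was not tied to astrocytes alone, since r was also 0.59 with the myelinating oligodendrocyte score and 0.65 with the precursor score. Scd, Fads1 and Fads2 had r between 0.09 and 0.14 with the myelin score, none of which passed. The medium spiny neuron score was negatively related to Fads2 (r = -0.55), Acaca (-0.50), Elovl6 (-0.43) and Fasn (-0.40), and without the 2 farthest libraries these were -0.45, -0.52, -0.29 and -0.39. All of these scores come from the same libraries, where a higher share of 1 cell type lowers that of others.

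**Figure D4:**
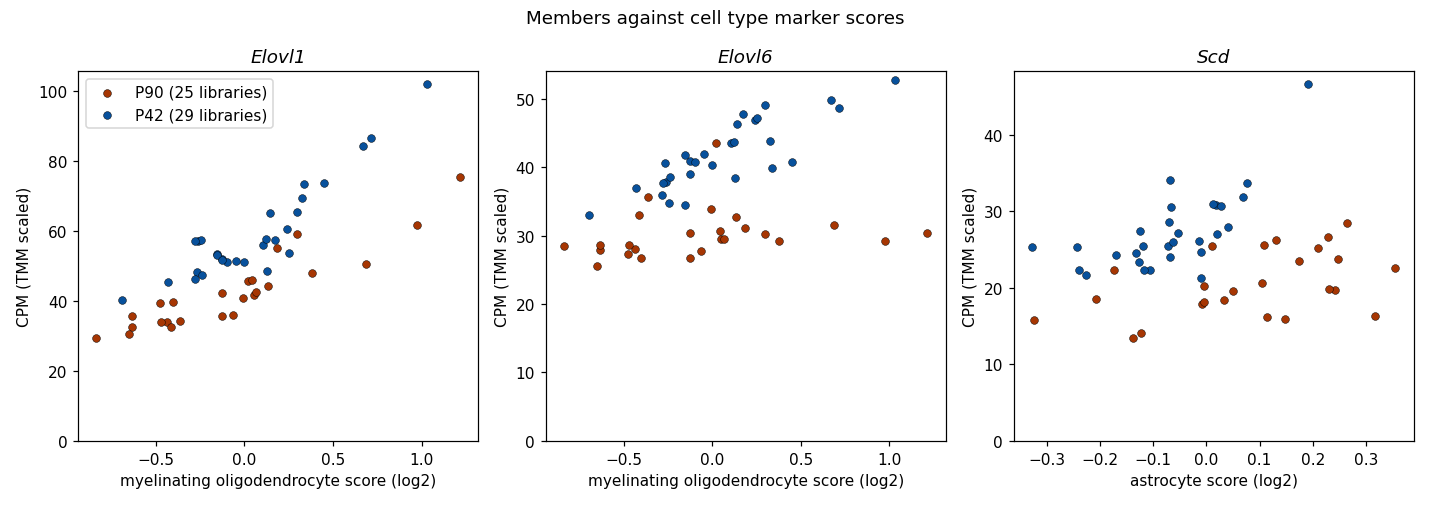
CPM of Elovl1 and Elovl6 against the myelinating oligodendrocyte score and of Scd against the astrocyte score, 1 point per library, P90 and P42 in separate colours. Elovl1 rises with the myelin score at both ages (within-group r of 0.95 at P90 and 0.92 at P42), and Elovl6 has a within-group r of 0.31 at P90 and 0.84 at P42, a difference that was not tested.

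Among the 36 pairs of members, 18 passed an adjusted p of 0.05 by permutation. The synthesis enzymes grouped with Elovl6: r was 0.71 for Elovl6 with Fasn (rho 0.70), 0.70 with Acly (rho 0.63) and 0.67 with Acaca (rho 0.61), and 0.63 for Fasn with Acaca. Without the 2 farthest libraries these were 0.67, 0.63, 0.63 and 0.57. Scd, which uses the product of Elovl6, had r = 0.17 with it over all 54 libraries (rho 0.14, adjusted p = 0.339 by permutation). Within ages this r was 0.44 at P42 and -0.11 at P90, a difference that was not tested. Scd correlated more with Fads1 (r = 0.63, rho 0.65) and Fads2 (r = 0.47, rho 0.46), at 0.61 and 0.46 without the 2 farthest. The neighbours Fads1 and Fads2 had r = 0.49 (rho 0.47), and Elovl5 with Acly had 0.65 (rho 0.65).

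**Figure D5:**
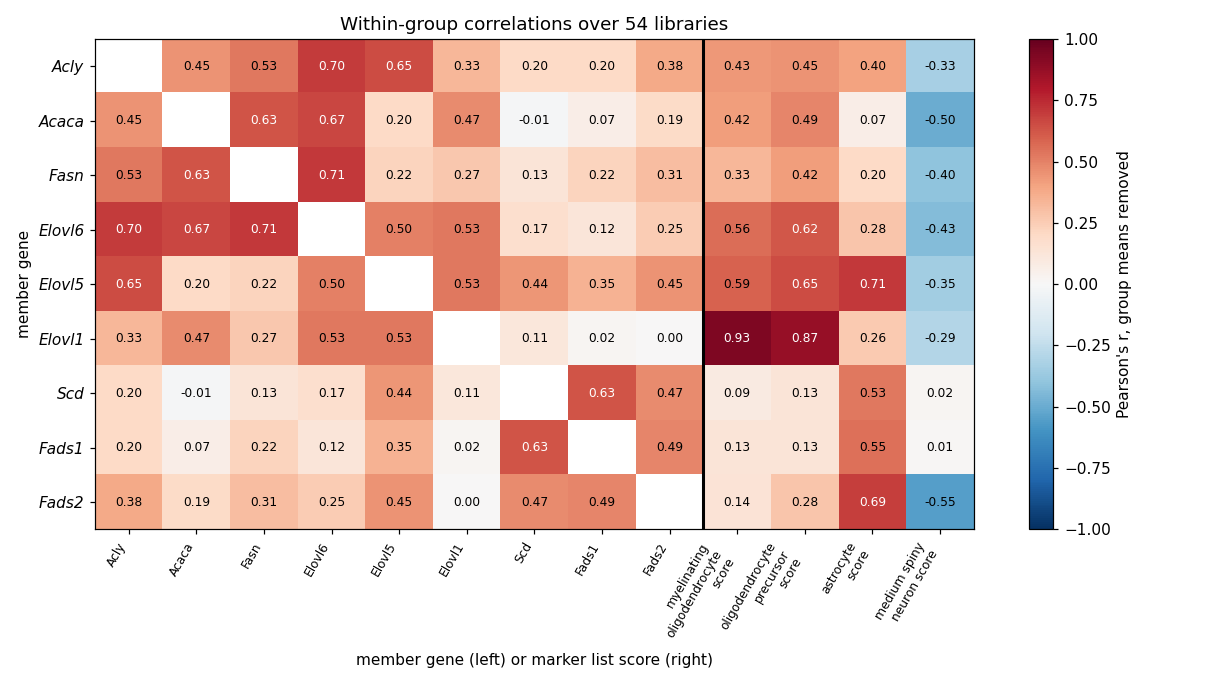
Pearson's r over 54 libraries, with group means removed, between members (left of the line) and between members and 4 marker scores (right of the line). Acly, Acaca, Fasn and Elovl6 form a block with r from 0.45 to 0.71, and Scd, Fads1 and Fads2 another with r from 0.47 to 0.63. Elovl5 and Elovl1, placed in neither, also correlate with members of the blocks. Elovl5 has r = 0.65 with Acly and 0.45 with Fads2, and Elovl1 has 0.53 with Elovl6.

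Of 14334 genes ranked by their within-group correlation with Elovl6, the 5 highest outside the members were Kcnc1, a voltage-gated potassium channel (r = 0.817), Kctd9 (0.785), Kcna6, another potassium channel (0.783), Pdcd6ip, a membrane-remodelling adaptor (0.783), and Specc1 (0.782). These are higher than the 0.71 of Elovl6 with Fasn, and they are given as a description of the same 54 libraries.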

How the data were processed

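Bulk RNA of the nucleus accumbens was sequenced in 54 libraries in 8 groups taken from the sample titles. Libraries did not keep strand; cDNA was primed with random hexamers after an RNA extraction meant for lipid-rich tissue, per the labels. The submitters' processing notes name fastp and HISAT2 2.0.5; for the read counter, the sources used here give no name. The table deposited by the authors holds raw read counts per gene and FPKM for the same libraries, and 45780 of its 45785 named genes match GRCr8 in ID, start and end. Rows with no gene name (720) took 0.271 to 0.412% of counts and were left out.

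Counts were tested with edgeR 4.0.16 (R 4.3.3): TMM, the default filter on low counts by group, the two-sided quasi-likelihood F test and Benjamini-Hochberg adjustment over all genes tested, with a threshold of 0.05. Fits held 29 adolescent, 25 adult, 24 exposed or 30 control libraries, with 24741, 24018, 24337 and 24065 genes tested, and 1 fit held all 54 with 26079. FPKM served only to compare levels between genes. Correlations used numpy 2.4.6, with log2 CPM at a prior count of 2, and likeness to Elovl6 used genes with a mean of at least 1 CPM. Scripts were tested on simulated data. Alternatives were relative log expression factors, no filter, DESeq2 1.42.0, voom with quality weights (limma 3.58.1), 1 fit of all libraries, a myelin score or 3 neighbour tissue scores as covariates, leaving out libraries whose sex markers go against the title or that stand apart, and leaving out each library.

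The members and all gene lists were chosen with earlier results of these data known. All members are named; of a pathway list, up to 3 genes past the threshold with the smallest adjusted p, or else the 1 nearest; for the exposure comparisons only the nearest over all lists is printed. The 5 genes most like Elovl6 follow their correlation. Reads carry no molecular identifiers, so depth bounds counting error only.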

Additional observations from a re-analysis of the deposited data

Results flagged for a closer look

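In 7 of 72 combinations of member and group, 1 library lay far from the rest of its group by Dixon's test, where chance gives about 1 in 20. P90 PAE-AAE male replicate 3 was high in Elovl6 (43.5 CPM, the others 25.6 to 31.1) and in Acly (361.7 CPM, the others 230.9 to 274.8). P42 PAE-VEH male replicate 6, the library with the highest cortical score, was high in Elovl5 (154.4 CPM, the others 93.9 to 115.5) and in Scd (46.7 CPM, the others 21.3 to 31.8). Elovl1 had such a library in 3 groups: P90 PAE-AAE female replicate 3 was high (48.1 CPM, the others 32.6 to 35.9), P42 PAE-VEH female replicate 3 was low (48.6 CPM, the others 57.2 to 57.4), and P42 PAE-VEH male replicate 3 was high (86.5 CPM, the others 45.3 to 65.6). EdgeR's tests of female minus male effects and of the P90 minus P42 exposure effect called 0 members.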

How the results depend on the processing

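Counts of genes called depended strongly on the tool. For the exposure effect at P42, DESeq2 called 24 genes in males, 86 in females and 72 for the sex difference, and voom 1, 36 and 81, where edgeR called 0. Without the sex-mismatched libraries edgeR called 1 for that difference, and 0 to 0.0283% of genes with 1 library left out. At P90 DESeq2 called 2 in males and 8 in females and voom 1 in each, and leaving out 1 library gave 0 to 0.00418% of genes in females. For age in exposed males, 69 became 185 with the myelin score, 164 with 3 neighbour scores (chosen after seeing the data), 231 in DESeq2 and 224 in voom, and 0.284% of genes became 0.169 to 0.479% with 1 library left out (lowest without PAE-AAE replicate 4, highest without replicate 6); members called were 1 to 3. In exposed females, 529 became 309 with no filter, 1198 without the libraries that stand apart, 1192 in DESeq2, 1797 in voom, 121 in the fit of all 54, and 2.17% of genes became 0.296 to 1.93% with 1 left out (lowest without P42 replicate 1). Members called there were 1 under DESeq2, voom, the myelin score and the neighbour scores, Elovl1 each time, and 0 to 1 with 1 left out. For the sex difference of the age effect, 449 became 257 with no filter, 816 without the libraries that stand apart, 1335 in DESeq2, 1938 in voom, 0 in the fit of all 54 and 1.84% of genes became 0 to 4.31% with 1 left out (0 without PAE-AAE female replicate 1 or 5, PAE-VEH female replicate 1 or PAE-AAE male replicate 5, highest without PAE-AAE male replicate 6); members called were 2 in DESeq2, 2 in voom and 0 to 2 with 1 left out. Sex in P42 controls gave 13 genes without the mismatched libraries, 7 in DESeq2, 7 in voom and 4 in the fit of all 54, and sex in P90 controls 0 in voom. For the P90 minus P42 exposure effect in males, 37 became 9 with relative log expression factors, 1 with no filter, 3 with the myelin score, 1 without the mismatched libraries, 0 without the libraries that stand apart, 508 in DESeq2, 261 in voom and 0.142% of genes became 0 to 2.99% with 1 left out (lowest without P90 PAE-AAE replicate 2 or 5 or P90 control replicate 6, highest without P90 control replicate 2); members called were 2 in DESeq2, 1 in voom and 0 to 2 with 1 left out. The causes were not tested.

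In exposed males Scd and Elovl6 stayed past the threshold in all 9 settings that left out no single library (-0.79 to -0.65 and -0.51 to -0.43), and Fasn in 6 of 9, failing with no filter (adjusted p = 0.0769), with the myelin score (0.0589) and without the mismatched libraries (0.0796). Fads2 passed in 4 of 9, with adjusted p from 0.00737 to 0.156. No member past the threshold in any of these fits changed sign. Of relations with scores, Elovl5 with medium spiny neurons no longer passed without the mismatched libraries (r = -0.32, adjusted p = 0.0973). Leaving out mismatched libraries does not alter the fit of adult libraries, which holds none. Sex in P90 controls was fitted together with P42 controls, some of them mismatched, so that fit can change. No paired analysis was possible because the labels carry no replicate numbers that pair libraries across groups. Groups of 4 to 9 libraries limit precision, and what depth adds to that limit was not tested.

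Among members that passed neither with all libraries nor under the alternative, 110 of 2808 log2 fold changes changed sign, most of them near 0. Elovl1 turned most often. With the myelin score as a covariate it became 0.04 for sex in P90 controls (against -0.39), 0.15 for exposure at P90 in males (against -0.15) and 0.09 for exposure at P42 in females (against -0.14). It became -0.28 for the sex difference of exposure at P90, 0.12 for that at P42 and 0.01 for sex in P42 controls. For P90 minus P42 exposure it became -0.23 in females and 0.22 in males. In voom Elovl1 became 0.03 for exposure at P42 in females, 0.12 and -0.02 for the sex difference at P42 and at P90, and -0.06 in females and 0.09 in males for P90 minus P42 exposure. Without the mismatched libraries that last value in females was -0.01.

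Of the others, the myelin score gave Elovl5 0.06 for exposure at P90 in males, -0.04 for its sex difference and 0.06 for sex in P90 controls. It gave Acly 0.02 for exposure at P42 in females and 0.01 for age in exposed males, Acaca -0.04 for the sex difference of age, Fads2 0.02 for sex in P90 controls, and Fasn 0.03 for P90 minus P42 exposure in males. Voom gave Acaca 0.02 for exposure at P42 in males, Fasn -0.01 for exposure at P90 in males, and Fads2 0.02 for exposure at P90 in females. It gave Acly 0.04 for the sex difference of exposure at P90, Fads1 0.03 for sex in P42 controls and Scd -0.01 for P90 minus P42 exposure in females. Without the mismatched libraries, exposure at P42 gave -0.01 for Fasn and 0.00 for Acaca in males and 0.01 for Acly in females, sex in P42 controls 0.01 for Fads1, P90 minus P42 exposure in males 0.03 for Fasn, and r of Fads1 with the medium spiny neuron score -0.01. Without the 2 libraries that stand apart, exposure at P90 gave Fasn -0.02 in males and 0.00 for the sex difference, and age in exposed males gave Acly 0.01. Fads1 for sex in P42 controls was 0.00 with relative log expression factors, 0.01 with no filter and 0.00 in DESeq2, and Fasn for P90 minus P42 exposure in males was 0.01 with those factors and in DESeq2.

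With 1 library left out, the members with a sign change had these ranges. For exposure at P90 in males they were -0.24 to 0.00 for Elovl1, -0.04 to 0.13 for Elovl6, -0.02 to 0.14 for Acly and -0.02 to 0.05 for Fasn. In females they were -0.15 to 0.03 for Elovl1, -0.03 to 0.07 for Elovl6, -0.04 to 0.04 for Fads2 and -0.04 to 0.02 for Fasn, and for the sex difference -0.04 to 0.20 for Elovl1, -0.11 to 0.07 for Elovl6, -0.09 to 0.07 for Acly and -0.06 to 0.01 for Fasn. For exposure at P42 in males they were 0.00 to 0.04 for Fasn and -0.02 to 0.01 for Acaca, in females -0.20 to 0.04 for Elovl1, -0.06 to 0.03 for Acly and -0.11 to 0.01 for Fads1, and for the sex difference -0.14 to 0.09 for Elovl1. For age they were -0.12 to 0.03 for Acly in exposed males and 0.00 to 0.08 for Acaca in the sex difference. For P90 minus P42 exposure in males they were -0.18 to 0.06 for Elovl1, -0.08 to 0.09 for Elovl6 (a description, since its control age difference chose the gene) and -0.04 to 0.03 for Fasn, and in females -0.09 to 0.17 for Elovl1, -0.02 to 0.11 for Scd, -0.05 to 0.01 for Acaca and -0.01 to 0.07 for Fasn.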
